A study of Mus musculus with 12 samples.

Results

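The saline-injected left ventricle was represented by 4 samples, the PBS group, of 12 in the whole study, chosen by their label. Each was the left ventricle of a healthy C57BL/6J mouse heart taken on day 3 after the thorax was opened and 2 injections of 10 µl of phosphate-buffered saline (PBS) were placed in the myocardium, with no drug. The other samples, 4 with a Upy-PEG hydrogel and 4 with that gel carrying antimiR-195, were not compared here. The samples are named PBS replicate 1 to 4 in order of deposition. The labels gave no sex, age, litter or batch, and nothing states that each sample came from a separate animal, so the spread described below is the spread between these samples and may be partly technical. The group was anaesthetised, operated on and punctured, and no uninjected group was used here, so the profile is that of an injected ventricle.

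The left ventricle pumps blood into the aorta, and its mass is mostly cardiomyocytes, large striated cells filled with sarcomeres and mitochondria. Sarcomeres are built of thick filaments (myosin) and thin filaments (actin, tropomyosin and troponin), and calcium released from the sarcoplasmic reticulum at each beat starts the sliding of one past the other. Most sarcomere proteins and many enzymes come in isoforms from separate genes, and heart, skeletal muscle and the fetal or stressed heart are known for different choices among them. The adult heart makes most of its ATP by oxidising fatty acids. RNA of a whole ventricle also holds that of fibroblasts, endothelial cells, pericytes, macrophages and blood, and in such bulk samples fewer cells of a type and less RNA per cell cannot be told apart.

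The myosin heavy chain genes Myh6, Myh7 and Myh7b each enclose a microRNA hairpin on their own strand, as matched by coordinates. The mature sequences from RefSeq (GRCm38.p6) are shown because their hosts stood at very different mRNA levels, with the seed (bases 2 to 8) in capitals. The microRNAs themselves were not measured in these libraries of polyadenylated RNA.
miR-208a-3p, in Myh6, chr14:54949072-54949093, minus strand: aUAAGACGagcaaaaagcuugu
miR-208b-3p, in Myh7, chr14:54975710-54975731, minus strand: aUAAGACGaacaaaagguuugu
miR-499-5p, in Myh7b, chr2:155622893-155622913, plus strand: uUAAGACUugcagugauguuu
The 208a and 208b strands share 1 seed, UAAGACG, and the seed of miR-499-5p, UAAGACU, has the same letters up to the last. Their hosts had mean levels of 4924 RPKM (Myh6), 42.3 RPKM (Myh7) and 24.1 RPKM (Myh7b), where RPKM is reads per kilobase of gene, scaled to the reads counted on genes in the library.

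Between 24105867 and 30278621 reads were counted on genes per sample, PBS replicate 1 having the most. A gene was counted as detected at 1 RPKM or more in all 4 samples, where 1 read per kilobase is worth 0.0330 to 0.0415 RPKM. Of 38293 genes in the files, 10821 were detected, of which 10224 were protein coding, 185 long noncoding and 289 pseudogenes. A further 1290 genes reached 1 RPKM in some samples but not in all. The ladder of levels was steep: 3598 genes were at 10 RPKM or more in all samples, 374 at 100 or more and 37 at 1000 or more. No pair of samples agreed within sampling noise (chi-square per degree of freedom from 13.5 to 117), and all 4 were counted separately. Such a chi-square cannot show whether the samples came from separate animals. By this measure PBS replicate 1 was in the 3 most distant pairs and replicates 2 and 3 were the closest, but the order depended on the measure. By the rank correlation of log2 RPKM over 10585 nuclear genes, given as a description, replicates 2 and 4 (0.982) lay further apart than 1 and 4 (0.984), and by Pearson's r replicates 3 and 4 (0.9921) were as close as 2 and 3 (0.9919).

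The mRNA was concentrated in few genes. A level per kilobase was used to weigh genes, so each share below is a share of the summed RPKM of a sample. In PBS replicates 1 to 4, 69, 33, 37 and 41 genes held 50% of the sum, and the 10 leading genes held 28.2%, 39.7%, 38.99% and 37.6%. Replicate 1 was the least concentrated of the 4. By contrast 3027, 2906, 3043 and 2914 genes were needed to reach 90%, so the long tail was alike in all samples. Among genes outside the mitochondrial genome, 50% was held by 183, 239, 258 and 228 genes, and here replicate 1 was the most concentrated.

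The 16 functional classes followed here, with 631 genes, together held 66.2% ± 1.51 (SD, n = 4) of the sum. Genes of the mitochondrial genome were the largest class, at 22.8%, 35.4%, 34.6% and 32.9% in replicates 1 to 4 (31.4% ± 5.84). Sarcomere genes followed with 11.2%, 8.86%, 9.05% and 9.08% (9.56% ± 1.13). Nuclear genes of the respiratory chain and ATP synthase held 8.18% ± 1.32. Oxygen and iron carriers (myoglobin, haemoglobins, ferritins and their kind) held 3.07% ± 0.710 from only 9 genes. Cytosolic ribosomal proteins held 2.33% ± 0.401 from 84 genes, fatty acid uptake and oxidation 1.93% ± 0.213, and the creatine kinase and adenylate shuttle 1.65% ± 0.196. Calcium cycling held 1.65% ± 0.127, the citric acid cycle 1.59% ± 0.0786 and glycolysis with glycogen metabolism 1.32% ± 0.128. Matrix genes, 80 in all, held 0.445% ± 0.0351, and MHC genes 0.145% ± 0.0408.

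**Figure D1:**
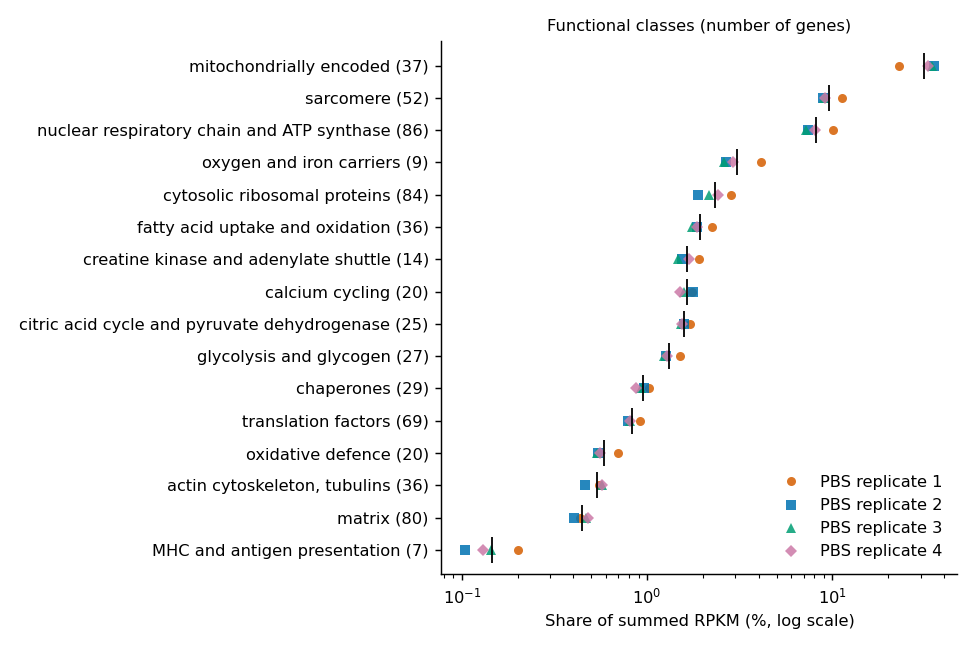
Share of summed RPKM (horizontal axis, %, log scale) held by each of 16 functional classes, with the number of genes in brackets; points are the 4 PBS samples and the black bar their mean. Replicate 1 lies below the other samples for mitochondrially encoded genes (22.8%) and above them for sarcomere genes (11.2%).

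The classes differed in how they varied. The citric acid cycle had the lowest coefficient of variation (CV, the SD as a percent of the mean) over the 4 samples, 4.95%, and MHC genes the highest, 28.2%. Replicate 1 had the highest share in 12 of the 16 classes and the lowest in mitochondrially encoded genes. Of 83 nuclear respiratory chain and ATP synthase genes with enough reads, 76 were highest in replicate 1, as were 73 of 82 ribosomal protein genes, where 42.5% of all genes were highest in that sample. With nuclear genes alone as the total it had the highest share in 8 of 15 classes, the citric acid cycle, calcium cycling, chaperones, creatine kinase, translation factors, matrix and cytoskeleton being highest in other samples. On that scale 67 respiratory chain and 57 ribosomal protein genes were highest in replicate 1, where 28.1% of all nuclear genes were. Genes under 500 bases in general had a median of 1.15 times the 4-sample mean in that sample. The part of gene length in these counts was not tested. With nuclear genes as the total, sarcomere genes held 13.9% ± 0.456. Matrix genes had another order. In the deposited RPKM 19 of 50 were highest in replicate 3, 19 in replicate 4 and 8 in replicate 1, where 23.2%, 17.15% and 42.5% of all genes were. Scaled to nuclear genes the counts were 19, 22 and 4, where 28.1%, 22.5% and 28.1% of all nuclear genes were.

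The mitochondrial genome encodes subunits of the respiratory chain, and its transcripts headed the profile. mt-Co1, the catalytic subunit of cytochrome oxidase, was highest of all genes, at 27737, 39623, 36694 and 36894 RPKM in replicates 1 to 4. mt-Cytb, of complex III, had 20412, 31127, 33004 and 32281 RPKM. The complex I subunits mt-Nd1, mt-Nd2, mt-Nd4 and mt-Nd5 had means of 28452, 17232, 12226 and 9923 RPKM. In all 6 of these mRNAs replicate 1 was the lowest sample, and for mt-Nd5 it had 5066 RPKM beside 12496, 12173 and 9957. The mitochondrial ribosomal RNAs went the other way: mt-Rnr1 had 3057, 1849, 1852 and 1874 RPKM and mt-Rnr2 3115, 2160, 2029 and 1799, with replicate 1 highest for both. mt-Nd6, the one protein gene here on the light strand, was far lower, at 314 ± 52.5 RPKM (SD, n = 4).

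For 6 of the 13 mitochondrial protein genes almost no read was counted. mt-Co2, mt-Co3, mt-Atp6, mt-Atp8, mt-Nd3 and mt-Nd4l had means from 0.0237 to 0.202 RPKM, and the most reads over all 4 samples was 14, for mt-Atp6. Every gene of this group but mt-Atp8 shares nearly all its sequence with other annotated genes, and shares most with a copy on chromosome 1. Of the 50-base words in mt-Co2 100% also occur in other genes, in mt-Co3 99.9%, in mt-Atp6 99.5%, in mt-Nd4l 98.8% and in mt-Nd3 98.0%. mt-Co1 shares 51.1% and mt-Nd4 62.2% of its words with other genes, and each again shares most with a copy on chromosome 1. The files list reads with several alignments in a row of their own, outside the gene counts, so the levels of these genes and the mitochondrial share as a whole are uncertain.

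Among nuclear genes myoglobin (Mb), the oxygen store of red muscle, came first, at 13235, 8963, 8387 and 9967 RPKM. Replicate 1 was the highest and the other samples lay close together. Cardiac actin (Actc1), the thin filament itself, had 8572, 8150, 8508 and 8293 RPKM, the smallest spread of the 30 leading genes (CV 2.32%). Cardiac troponin T (Tnnt2), which ties the troponin complex to tropomyosin, had 9004, 5780.5, 6426 and 7474 RPKM, and its level depends on the gene length used, 1227 bases in the deposited values and 7752 bases for the union of exons in GENCODE M21. The alpha myosin heavy chain Myh6, the fast motor of the thick filament, had 5133, 5343, 4800.4 and 4422 RPKM. Replicate 1 was within the range of the others for this long gene.

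The myosin light chains Myl3 (essential) and Myl2 (regulatory) had means of 4505 ± 1053 and 3473 ± 578 RPKM (SD, n = 4). Troponin I (Tnni3) had 2453 ± 508, troponin C (Tnnc1) 2404 ± 410.5, the Z-disc protein Tcap 1600.4 ± 488 and tropomyosin Tpm1 1591 ± 288 RPKM. Calcium handling was headed by the pump Atp2a2 (SERCA2), which refills the sarcoplasmic reticulum, at 2913, 3322.5, 2635 and 2487.5 RPKM, and by phospholamban (Pln), its inhibitor, at 2514, 2320, 2243 and 2233 RPKM. Energy genes among the 30 leaders were the ADP/ATP carrier Slc25a4 (2406 ± 369), muscle and mitochondrial creatine kinase Ckm (1775 ± 269) and Ckmt2 (1611 ± 229.8), the cytochrome oxidase subunits Cox6a2 (2106 ± 148) and Cox7a1 (1923 ± 647), the small subunit Ndufa4 (1796 ± 345) and the ATP synthase subunit Atp5a1 (1582 ± 151). Ferritin heavy chain (Fth1), which stores iron, had 2729 ± 625 RPKM and the lens and muscle chaperone Cryab 1521 ± 208. As for Tnnt2, the level and rank of some of these genes depend on the length used. The deposited and M21 union lengths were 866 and 3469 bases for Fth1, 492 and 1381 for Ndufa4, and 1415 and 2913 for Ckm. For others, such as Actc1 (1618 bases), they were equal. In all, 21 of the 30 leaders were nuclear, and the 30 held 40.9%, 49.3%, 48.3% and 47.3% of the sum. The remaining mitochondrial RNA among them, the isoleucine tRNA gene mt-Ti, is 69 bases long and adjoins mt-Nd1.

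**Figure D2:**
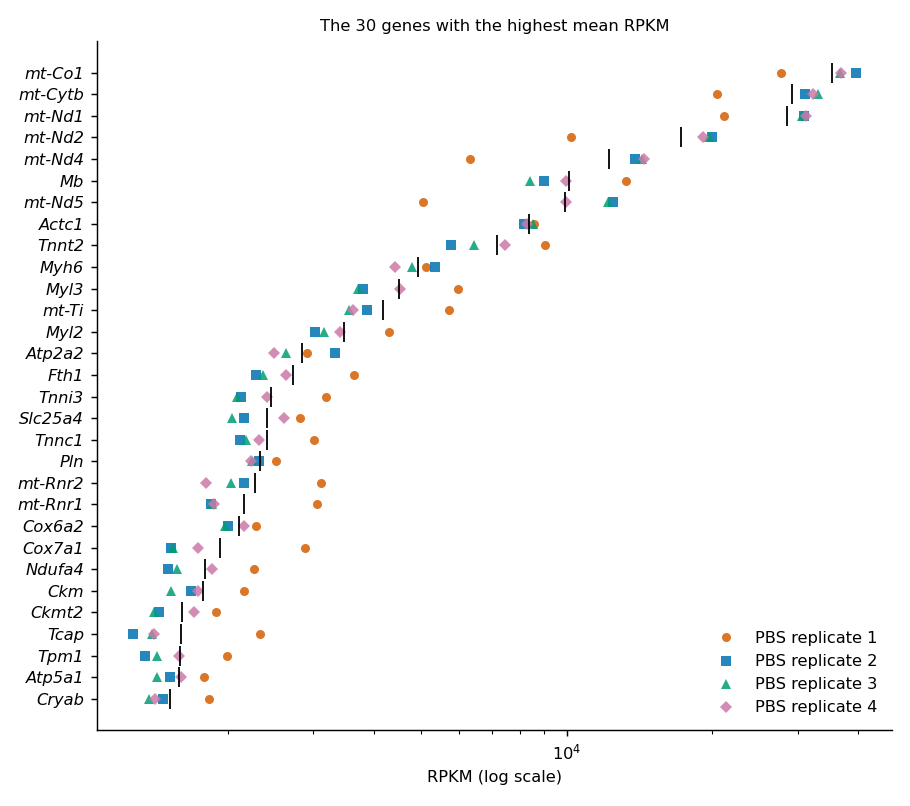
The 30 genes with the highest mean RPKM (horizontal axis, log scale); points are the 4 PBS samples and the black bar their mean. Actc1 points nearly coincide (8150 to 8572 RPKM), while replicate 1 stands to the left for the mitochondrial mRNAs and to the right for Mb and Cox7a1.

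The start regions of 4 contractile genes are printed because these genes form a leading and a minor member of the same family, Myh6 with Myh7 and Actc1 with Acta1. The sequences run 5′ to 3′ on the gene's strand from 250 bases before to 50 after the start in RefSeq (GRCm38.p6), and the first of 2 annotated starts is shown for Myh7. Capitals mark, on either strand, TATAAA, the GATA motif GATAA, the MCAT motif CATTCC and the CArG box, bound by serum response factor.
Myh6, chr14:54966558-54966857, minus strand: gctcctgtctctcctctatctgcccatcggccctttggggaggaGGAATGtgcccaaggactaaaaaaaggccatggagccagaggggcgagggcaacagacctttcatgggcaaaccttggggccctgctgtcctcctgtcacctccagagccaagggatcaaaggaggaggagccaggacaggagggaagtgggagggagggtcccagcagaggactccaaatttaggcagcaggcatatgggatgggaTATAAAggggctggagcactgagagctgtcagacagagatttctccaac
Myh7, chr14:54994577-54994876, minus strand: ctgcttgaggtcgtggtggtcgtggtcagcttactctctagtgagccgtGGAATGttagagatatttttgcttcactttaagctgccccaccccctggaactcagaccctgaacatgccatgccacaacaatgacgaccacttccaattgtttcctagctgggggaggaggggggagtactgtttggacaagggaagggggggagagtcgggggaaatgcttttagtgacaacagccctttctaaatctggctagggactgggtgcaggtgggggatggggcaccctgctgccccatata
Actc1, chr2:114052826-114053125, minus strand: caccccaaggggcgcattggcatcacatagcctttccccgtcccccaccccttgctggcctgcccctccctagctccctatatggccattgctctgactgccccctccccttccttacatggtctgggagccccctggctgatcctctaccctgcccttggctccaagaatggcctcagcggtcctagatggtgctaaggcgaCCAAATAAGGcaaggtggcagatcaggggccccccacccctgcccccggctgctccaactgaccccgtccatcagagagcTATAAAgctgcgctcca
Acta1, chr8:123894726-123895025, minus strand: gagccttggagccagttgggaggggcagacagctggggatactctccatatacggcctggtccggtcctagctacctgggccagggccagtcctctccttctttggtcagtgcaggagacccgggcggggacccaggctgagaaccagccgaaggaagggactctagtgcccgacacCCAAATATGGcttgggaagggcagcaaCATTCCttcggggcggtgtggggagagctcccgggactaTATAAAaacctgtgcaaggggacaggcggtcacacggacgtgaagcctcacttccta
Both actin windows hold a CArG box, and neither myosin window does. TATAAA begins 2 bases after the start in Myh6, 34 after it in Actc1 and 7 before it in Acta1. The windows are thus not aligned on that motif, and a motif absent from a window may lie outside it. A CArG box is in 1.63% of all 32851 promoter windows of that length and in 14.04% of the 57 windows of sarcomere genes, of which 45 of 52 were matched. CATTCC was in 14.7% of all windows and 29.8% of sarcomere windows, TATAAA in 13.6% and 15.8%, and GATAA, in none of the 4 printed, in 25.4% and 29.8%. These matches describe letters in a window and not bound sites.

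Of 81 families of related genes, 30 had a leading member with at least 90% of the family's RPKM, 41 a leader with 50% to 90%, and 10 a leader under 50%. The leader was the same in all 4 samples in 76 families. The share of the leader varied little: its SD over the samples had a median of 1.48 percentage points over families and reached 5 points in only 7. Of the 341 distinct members, 254 were detected.

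The thick filament used its cardiac isoforms almost alone. Myh6 held 97.7% ± 0.337 of 12 myosin heavy chain genes. Myh7, the slow beta chain of the fetal mouse ventricle, had 42.9, 19.6, 54.9 and 51.7 RPKM, lowest in replicate 2, a 2.80-fold range. Myh7b had 24.1 ± 4.83 RPKM and the nonmuscle chains Myh14 and Myh9 22.2 and 14.7. Of the 50-base words of Myh6 and Myh7, 22.6% and 28.3% also occur in other genes, each sharing most with the other. Their levels carry that uncertainty. Mhrt, the noncoding RNA antisense to Myh7, had 88.9 RPKM (CV 7.485%). The ventricular light chains Myl2 and Myl3 held 94.2% ± 0.3275 and 97.1% ± 0.412 of their families, and the next members were the nonmuscle Myl12a (154 RPKM) and Myl6 (117 RPKM). Mybpc3, the cardiac myosin binding protein C, held 99.3% ± 0.0804. The M-band was shared: Myom1 held 68.6% ± 3.75 and Myom2 31.2%, with Myom3 at 0.582 RPKM.

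The thin filament was as exclusive. Actc1 held 93.3% ± 0.484 of 6 actins, and the skeletal actin Acta1, which the fetal and stressed heart is known to express, had 306, 328, 227 and 191 RPKM, highest in replicates 1 and 2. Tnni3, Tnnt2 and Tnnc1 held 99.9%, 99.9% and 99.99% of the troponin I, T and C families. The slow skeletal Tnni1, the troponin I of the fetal heart, stayed under 1 RPKM in every sample (mean 0.196), as did the fast skeletal Tnnt3 (0.420) and Tnnc2 (0.239). Tpm1 held 95.2% ± 0.690 of the tropomyosins. At the Z-disc Actn2 held 93.9% of alpha-actinins and Myoz2 99.9% of calsarcins, while Nrap, an actin-anchoring protein of the intercalated disc, held 83.1% ± 1.91 of the nebulin family ahead of Nebl with 12.2%.

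Calcium cycling used 1 gene at nearly each step. Atp2a2 held 99.9% of SERCA pumps, the ryanodine receptor Ryr2, the release channel, 99.8%, calsequestrin Casq2 98.5% and the sodium-calcium exchanger Slc8a1 99.3%. Pln held 99.8% of the SERCA inhibitors. The atrial inhibitor sarcolipin (Sln) had 0.257, 2.81, 0.967 and 5.08 RPKM, highest in replicate 4 and lowest in replicate 1. Ryr2 and Slc8a1 were lowest in replicate 1: Ryr2 had 58.8, 125, 99.2 and 80.3 RPKM and Slc8a1 21.005, 54.3, 50.6 and 34.3. Among CaM kinase II genes Camk2g led with 46.2% ± 1.05 per kilobase ahead of Camk2d with 28.8%, but by counts Camk2d held 55.7% and Camk2g 20.8%.

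Genes of membrane excitability had clear leaders as well. Cacna1c, the L-type calcium channel, held 79.7% ± 1.43 of 10 alpha-1 genes. Hcn2 held 83.7% ± 7.49 of pacemaker channels, and the sinus node channel Hcn4 had 0.739, 3.13, 2.51 and 1.57 RPKM. Connexin 43 (Gja1), the gap junction protein of working myocardium, held 91.98% ± 0.953 at 164, 147, 176 and 159.95 RPKM.

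Nuclear cytochrome oxidase subunits have liver-type and heart-type isoforms, and the heart types led. Cox6a2 held 94.5% ± 0.474, Cox8b 88.7% ± 1.72 and Cox7a1 80.3% ± 2.91 of their pairs or trios, with Cox6a1 at 124 RPKM, Cox8a at 176 and Cox7a2 at 331. Cox4i1 and Cox6b1, the widely expressed forms, held 99.3% and 99.8%. Cox6a2 had 2289, 2004, 1969 and 2161.5 RPKM (CV 7.03%) whereas Cox7a1, a gene of 364 bases, had 2883, 1528, 1544 and 1737 (CV 33.6%), so replicate 1 stood apart for the second and not for the first. ATP synthase subunit c, encoded by 3 genes, came mainly from Atp5g3 (68.5% ± 4.86). Slc25a4 held 95.3% of the ADP/ATP carriers and creatine kinase was divided between Ckm, 51.9% ± 1.45, and the mitochondrial Ckmt2, 47.1%, with the brain type Ckb at 35.95 RPKM.

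Glucose and fatty acid genes kept muscle isoforms. The insulin-responsive transporter Slc2a4 (GLUT4) held 87.2% ± 0.958 of glucose transporters at 126, 134, 132 and 135 RPKM. Hexokinase Hk2 held 69.4% ± 1.48, phosphofructokinase Pfkm 90.4%, aldolase Aldoa 99.8%, enolase Eno3 97.7% and phosphoglycerate mutase Pgam2 99.5%, with the sequence of Eno1 and Pgam1 shared for 72.2% and 41.5% of words with other genes. Lactate dehydrogenase was mostly the heart form Ldhb, 77.8% ± 2.37, with Ldha at 21.2%. Glycogen phosphorylase was Pygm, 67.2%, and the brain form Pygb, 32.5%, the latter at 207, 200.05, 216 and 206 RPKM. Fatty acid binding proteins were split between the myocyte Fabp3, 59.5% ± 6.30, and Fabp4, 40.2%, which in the heart is known from capillary endothelium. Fabp3 had 1479, 1237, 1181.5 and 1352 RPKM and Fabp4 1453, 809.7, 668 and 766. With the exon union of GENCODE M21 as length, Fabp3 held 90.7%, the deposited length of Fabp4 being 637 bases and the union 4489. Of the 50-base words of Fabp3 37.3% also occur in other genes, Fabp3-ps1 sharing most, and that copy was itself counted at a mean of 161 RPKM. The share of Fabp3 is uncertain for this reason too.

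The muscle carnitine palmitoyltransferase Cpt1b, the entry gate of long-chain fatty acids to mitochondria, was listed at 1.48, 2.62, 2.14 and 1.61 RPKM, under the liver form Cpt1a at 11.4 ± 0.727 RPKM. However, 93.0% of the 50-base words of Cpt1b lie also in other genes, the read-through gene Gm44502 sharing most. Exons of other genes overlap 81.4% of its exon bases, and the level of Cpt1b is therefore uncertain. Pyruvate dehydrogenase kinases, which block glucose oxidation, were led by Pdk2 with 150, 168, 154 and 142 RPKM. Pdk4, which fasting and fatty acids are known to induce, had 76.5, 140, 45.3 and 35.7 RPKM, so its share of the family was highest in replicate 2. The uncoupling protein Ucp3 had 21.3, 18.5, 10.3 and 9.88 RPKM, highest in replicate 1, and Ucp2 11.1, 11.4, 11.6 and 12.1. Ppard, Ppara and Pparg, the fatty acid receptors, held 48.7%, 29.01% and 22.3%, and Esrra 81.9% of the estrogen-related receptors.

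Isoforms known from muscle also led in translation. Eef1a2, the elongation factor of adult muscle and neurons, held 80.2% ± 2.64 over Eef1a1, at 895, 797, 774 and 760 RPKM, and Rpl3l, the muscle paralogue of ribosomal protein L3, held 72.4% ± 4.63 over Rpl3. Eef1a1 and Rpl3 share 60.6% and 58.4% of their 50-base words with other genes, each sharing most with a processed copy, so the shares within these 2 families are uncertain. Cardiac regulators were Gata4 (52.9% ± 0.692) with Gata6 (35.9%), Mef2a (43.1%) with Mef2d (42.6%), Tbx20 (50.2%) with Tbx5 (24.8%), and, among iroquois factors, Irx4 (42.8%), and Hand2 was counted almost alone, Hand1 having 1 read in all 4 samples. Mef2d was ahead of Mef2a in replicate 2 and behind it in the other samples, and with GENCODE M21 gene lengths Mef2d held 63.5% and Mef2a 27.5%. Of the receptors, Adrb1 held 81.7% ± 4.57 of beta-adrenergic, Adra1b 70.8% of alpha-adrenergic and Chrm2 98.8% of muscarinic genes.

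The natriuretic peptide Nppa had 267, 398, 428 and 374 RPKM and Nppb 245, 155, 211 and 125, so Nppa held 52.2%, 71.96%, 66.9% and 74.9% of the family, lowest in replicate 1. Small heat shock proteins were led by Cryab, 50.2% ± 4.79, and Hspb7, 22.4%, while by share of counts Hspb7 held 35.6% and Cryab 34.4%. Vegfb, the ligand abundant in oxidative muscle, held 71.4% ± 1.23 over Vegfa (25.6%), and Kdr 57.3% of the VEGF receptors. The interstitial collagens Col3a1 and Col1a1 held 26.4% ± 4.57 and 23.9% of 12 collagen genes, with the basement membrane chain Col4a1 at 12.7%. Col3a1 had 128, 109, 136 and 221 RPKM, highest in replicate 4. Among metalloproteinase inhibitors Timp1 had 14.95, 25.6, 52.7 and 34.1 RPKM and Timp2 35.6, 34.8, 35.5 and 37.5, so Timp1 led in replicate 3 and Timp2 in replicates 1 and 4, while Timp3 led in replicate 2 with 37.7 RPKM.

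**Figure D3:**
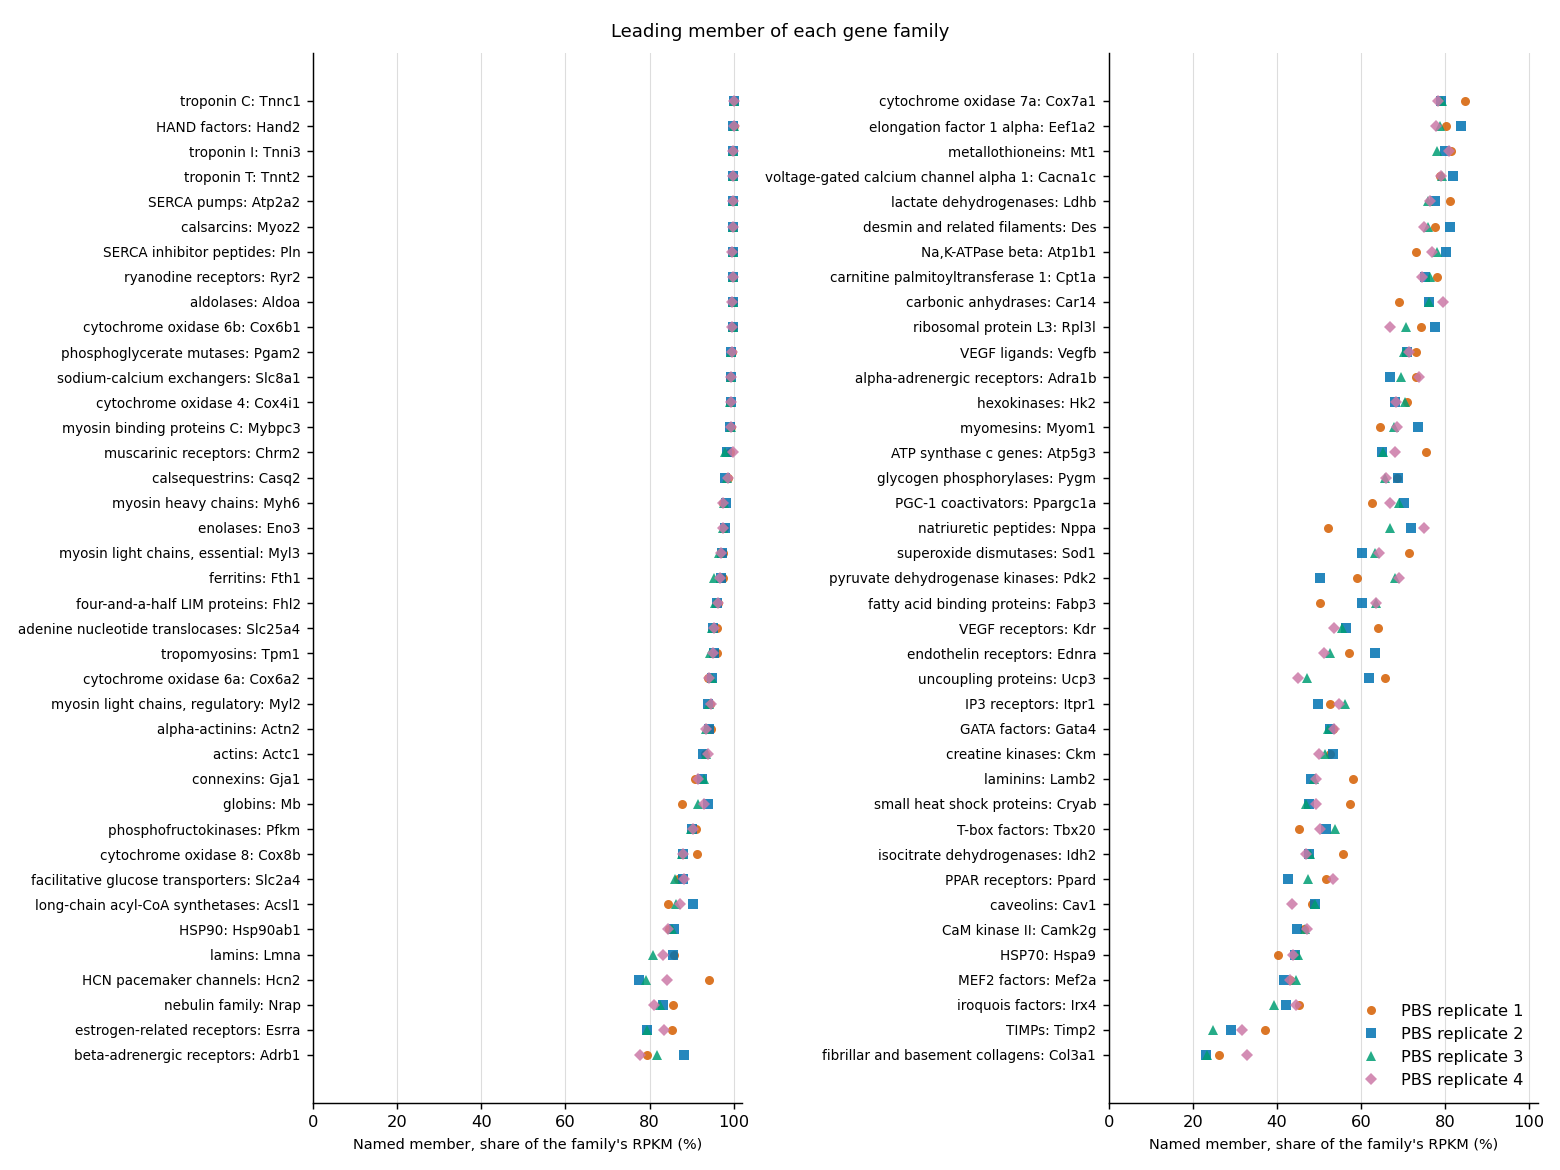
Share of each family's summed RPKM (horizontal axis, %) held by its leading member, for the families ordered by mean share, without a few that are not reported here; points are the 4 PBS samples. Leaders of the troponin, SERCA pump and ryanodine receptor families coincide near 100%, while Nppa (52.2% to 74.9%), Pdk2 and Ucp3 spread between samples.

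Marker genes of 23 cell types, 191 in all, were read as detected or not, and 113 were detected. All 12 ventricular cardiomyocyte markers were detected, from Mb to the ventricular factors Irx4 (20.8, 17.8, 17.4 and 20.5 RPKM) and Hey2 (mean 1.96 RPKM). Of 10 atrial markers 7 were detected, and the atrial factor Bmp10 had no read in the 4 libraries together, for which 3 counts set an upper limit of 0.0287 CPM (counts scaled to library size, not to length; counting error only). The atrial light chain Myl7 had 3.58, 12.9, 6.26 and 19.3 RPKM and Myl4 1.53, 2.38, 2.01 and 4.01, and both were highest in replicate 4 and lowest in replicate 1, the order that Sln also showed. Conduction markers were few, Isl1 having no read.

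Among non-myocyte markers, all 12 endothelial markers were detected, with Fabp4 and the water channel Aqp1 (123, 122, 139.55 and 149 RPKM) highest and Cdh5 and Pecam1, junction proteins, at 50.9 ± 4.74 and 35.9 ± 2.35. All 11 fibroblast markers were detected, led by gelsolin (Gsn, 396 ± 42.8) and decorin (Dcn, 236 ± 27.4), and all 7 of pericytes, led by Rgs5 (95.8 ± 8.88) and Abcc9. All 12 macrophage markers were detected: lysozyme (Lyz2) had 327, 195.02, 275 and 341 RPKM and C1qa 91.1, 75.5, 86.7 and 113, both lowest in replicate 2 and highest in replicate 4. Activated fibroblast markers were present at modest levels, 9 of 10 detected, with Postn at 17.2 ± 2.46 and Lox at 3.86, 6.02, 9.55 and 11.3 RPKM. Acta2, listed for both these and smooth muscle cells, led both lists with 64.3, 109.7, 91.3 and 85.2 RPKM.

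Traces of circulating and neighbouring cells differed between the lists. Of 6 monocyte markers 4 were detected, Ace (mean 14.4 RPKM), Plac8 (2.78), Ccr2 (2.41) and Fcgr4 (2.16). Of 9 neutrophil markers 3 were detected, led by S100a9 and S100a8, and Ly6g had no read. None of 10 T and NK cell markers was detected, the highest being Trac at 0.732 RPKM, and none of 5 mast cell markers. Of B cell markers Ighm (6.70 RPKM) and Igkc (3.78) were detected, while Cd79a, Ms4a1 and Pax5 stayed under 1 RPKM in all samples. Red cell transcripts were abundant, with Hbb-bs at 984, 311, 424 and 415 RPKM, and the platelet factor Pf4, which macrophages also express, had 45.3 ± 11.2. Of 10 adipocyte markers 3 were detected, Plin4, which heart muscle also expresses, at 32.8 RPKM, Scd1 at 3.50 and Cfd at 1.55, while Adipoq, Plin1, Cidec, Retn, Lep and Ucp1 were under 1 RPKM in all samples. None of the 5 lung epithelial markers was detected. Of 13 skeletal muscle markers 4 were detected, Acta1, which heart muscle also expresses, Myl1 at 11.8 RPKM, Mybpc2 at 7.17 and Tnni2 at 1.38, while Myh1, Myh2, Myh4, Actn3, Atp2a1, Pvalb, Tnnt3 and Tnnc2 were under 1 RPKM throughout. Of epicardial markers Aldh1a2 alone was detected, at 4.26, 6.00, 11.6 and 10.3 RPKM, and Wt1 was at 0.618. The Schwann cell markers Mbp, Sox10 and S100b were under 1 RPKM in all samples and Dbh, of sympathetic nerves, was at 2.12.

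The spread between samples was taken over 11009 genes with a mean of at least 1 RPKM and 50 reads. Their median CV was 11.6%, the central 50% of genes lay between 7.57% and 16.9%, and counting error alone would give a median of 3.92%. The highest sample exceeded the lowest by a median of 1.29-fold. CV was under 5% in 1107 genes (10.1%) and over 50% in 56 (0.509%). Replicate 1 was the highest sample for 4682 genes (42.5%) and replicate 2 the lowest for 4456 (40.5%). Both orders depended on the total. With nuclear genes alone as the total, replicate 1 was highest for 28.1% of 10996 genes and replicate 3 also for 28.1%, while replicate 1 was the lowest for 40.5% and replicate 2 for 33.9%.

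Deviations of the samples were ordered by gene length. With counts scaled to nuclear genes, the 98 genes under 500 bases in replicate 1 had a median of 1.15 times the 4-sample mean and the 1114 genes of 8000 bases or more 0.845 times. Replicates 2 and 3 had the opposite order, 0.868 and 0.930 for the shortest genes and 1.10 and 1.11 for the longest, and replicate 4 lay between, at 1.07 and 0.971. The part of this length order in the differences between samples described for single genes and for classes was not tested.

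**Figure D4:**
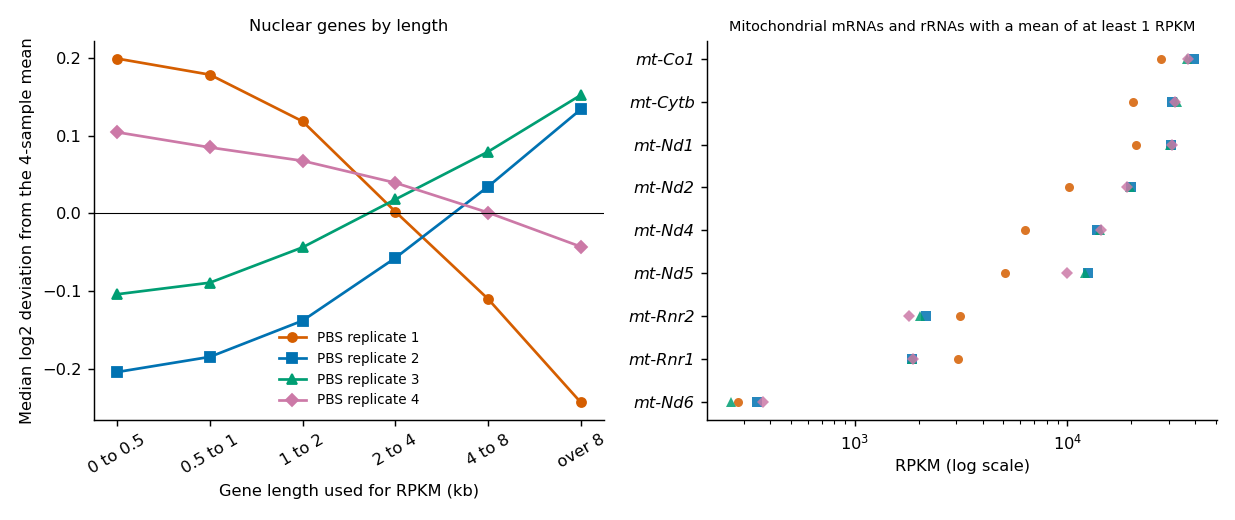
Left, median log2 deviation of nuclear genes from the mean of the 4 PBS samples (vertical axis) by gene length (horizontal axis, kb), 1 line per sample; right, RPKM (log scale) of mitochondrial mRNAs and rRNAs. Replicate 1 runs from above the mean in short genes to below it in long genes, and is lowest for mt-Co1 to mt-Nd5 and highest for mt-Rnr1 and mt-Rnr2.

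The most variable genes, among 6331 coding or long noncoding genes with a mean of at least 5 RPKM, reached CVs of 57.1% to 119%. Saa3, an acute phase protein, had 6.47, 4.39, 8.83 and 44.8 RPKM (CV 119%), and haptoglobin (Hp) 7.45, 6.44, 4.23 and 28.8 (CV 97.8%). S100a9 had 6.58, 4.24, 4.61 and 18.4 and S100a8 5.31, 3.59, 4.55 and 11.8 RPKM. These 4 inflammatory genes and Myl7 were all highest in replicate 4. Heme oxygenase (Hmox1), induced by heme and oxidants, had 11.95, 17.5, 53.7 and 22.1 RPKM and the stress protein Sprr1a 10.6, 16.4, 48.9 and 21.3, both highest in replicate 3.

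In replicate 1 the haemoglobin genes stood out. Hbb-bs, Hbb-bt, Hba-a1 and Hba-a2 had 984, 194.9, 299.9 and 315 RPKM there, against 57.8 to 424 in the other samples, and each was 3.17 to 3.58 times its lowest value. Of their 50-base words 65.8%, 58.3%, 67.5% and 86.9% also occur in other genes, so the 4 separate levels are uncertain. Alas2, the first enzyme of heme synthesis in red cells, had 14.8, 5.51, 8.20 and 6.86 RPKM, also highest in replicate 1. The carboxypeptidase-like Cpxm2 had 15.5, 5.05, 3.52 and 3.12 RPKM. Zbtb16, a glucocorticoid target, had 3.45, 23.7, 16.02 and 8.06 RPKM, and with Pdk4 and Rbp7, a retinol-binding protein of capillaries (11.2, 27.3, 6.64 and 9.10), made up the genes highest in replicate 2. With TMM scaling, or with nuclear counts as the total, 14 of these 15 genes were again among the 15 most variable.

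**Figure D5:**
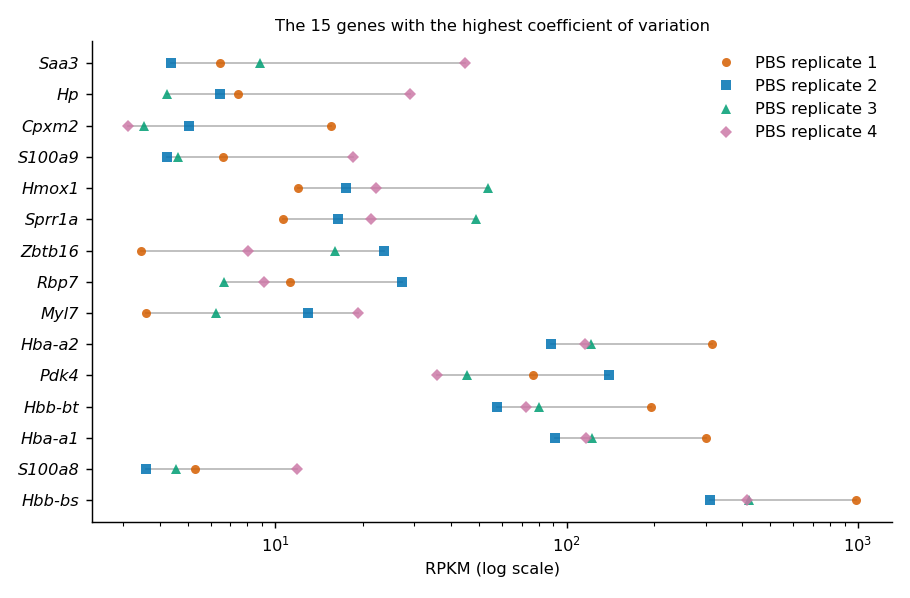
RPKM (horizontal axis, log scale) of the 15 genes with the highest CV among genes with a mean of at least 5 RPKM; points are the 4 PBS samples, joined by a grey line over their range. Replicate 4 is the high sample for Saa3, Hp, S100a9, S100a8 and Myl7, replicate 1 for Cpxm2 and the 4 haemoglobin genes.

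At the other end stood 15 genes with CVs of at most 1.28%. The RNA-binding protein Dazap1 had 16.4, 16.5, 16.6 and 16.5 RPKM (CV 0.478%), the Golgi subunit Cog6 27.5, 27.2, 27.1 and 27.2 (CV 0.558%), and Stx2, Nucb1, Dstn, Abhd5, Mmgt1, Ctsa, Ccnl2, Dynll2, Pcbp2, Vps26a, Dgkd, Spns1 and Ap3s2 lay above them. All but Dynll2 (CV 1.05%, counting error 0.811%) were below the counting error, and the values depend on the scaling. With nuclear counts as the total their CVs were 2.90% to 4.69% and none of the 15 stayed among the 15 least variable. The usual reference genes varied about as much as genes in general, with a median CV of 11.8% over 13 such genes with enough reads, beside 11.6% over all genes. Their CVs ran from 7.70% to 18.9%. Actb had 236, 189, 269 and 246 RPKM, Gapdh 164, 135, 144 and 162, and B2m 363, 228, 317 and 288.

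Response programmes are given beside the median CV of 11.6% over all genes and beside the shares of all genes that were highest in replicate 1 (42.5%), 2 (17.1%), 3 (23.2%) and 4 (17.2%). Immediate early genes had a median CV of 18.04% over 13 genes, Jund leading with 56.4, 37.4, 35.6 and 38.1 RPKM and Fos low at 1.60 RPKM, and Nr4a1 (22.1, 7.44, 17.8 and 12.7), Atf3 and Btg2 varying most. Of the 13, 7 were highest in replicate 1, which is near the share over all genes. Interferon response genes had a median CV of 18.7%, and 15 of 18 counted were highest in replicate 3, with Oasl2 at 3.43, 4.32, 7.28 and 5.27 RPKM. Cell cycle genes were low in every sample, and 14 of 16 were highest in replicate 4 (median CV 28.7%), with Mki67 at 0.774, 0.962, 1.49 and 1.53 RPKM and Ccnb2 at 1.56, 1.25, 1.86 and 3.19. Acute phase and cytokine genes had a median CV of 42.4% and 7 of 9 were highest in replicate 4, with osteopontin (Spp1) at 25.2, 25.5, 64.3 and 69.5 RPKM, highest in replicate 4, and the neutrophil attractant Cxcl1 at 2.04, 2.32, 2.31 and 6.28.

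Clock genes varied about as much as genes in general, with a median CV of 11.8% over 17 genes. Dbp, the output gene, had 91.2, 57.2, 63.2 and 61.2 RPKM and Nr1d1 (Rev-erb alpha) 41.4, 46.7, 44.98 and 28.1, while Arntl (Bmal1), which runs in opposite phase, was at 0.898, 0.928, 0.414 and 0.641, under 1 RPKM in all. Glucocorticoid targets had a median CV of 25.1%, Mt1 leading with 550.1, 395, 355 and 384 RPKM. Cardiac stress genes had a median CV of 21.7%. Ankrd1, a titin-bound stress sensor, had 1389, 661, 1111 and 759 RPKM, and no stress gene of the 15 was highest in replicate 4. Among noncoding RNAs Malat1 had 66.7, 73.9, 69.0 and 167 RPKM, highest in replicate 4, while Neat1 had 62.0, 58.6, 58.9 and 49.2, lowest there, and H19, the imprinted fetal RNA, 5.99, 7.14, 9.23 and 11.99. The 4 samples were alike in Y-linked Ddx3y (17.7, 16.2, 17.8 and 15.3 RPKM) and had almost no Xist (0.0116 RPKM at most), the pattern of male tissue.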

How the data were processed

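Left ventricles were sequenced as stranded libraries of polyadenylated RNA, and the 4 PBS samples were used. The authors deposited read counts per gene, made with STAR and HTSeq on GRCm38 per the submitters' processing notes (versions and strand setting are not given in the sources used here). The RPKM values were deposited by the authors and equal the counts divided by the gene total of the library and by 1 length per gene, as recomputed from the files. Of 38293 gene IDs 36429, holding 99.868% of counts, were found in GENCODE M21. Its union exon lengths served as an alternative chosen after seeing the data.

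Shares, means, SDs and CVs were computed with Python 3.11.15, pandas 2.3.3 and numpy 2.4.6, and scaling factors with R 4.3.3, edgeR 4.0.16 and DESeq2 1.42.0. No test between groups was run, because 1 group was described; samples were compared by chi-square per degree of freedom of their counts and by Dixon's criterion for 1 sample apart. The code for the spread was tested on simulated data. CVs used genes with a mean of at least 1 RPKM and 50 counts. Between 24105867 and 30278621 counts per sample limit the precision of low genes.

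The samples, gene lists and families were chosen with earlier results of these data known. Genes were named by rule: the 30 highest, the 2 leading members and the absent members of families, the 15 highest and 15 lowest in CV, the 2 leading and the absent markers, and the 3 most variable members of response lists. Other genes named were chosen after their values were seen. The alternatives were shares of counts, genes outside the mitochondrial genome as the total, other detection limits and filters, other scaling, and leaving out each sample. The gel-injected groups were left out. Some genes of these lists are not reported here.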

Additional observations from a re-analysis of the deposited data

Results flagged for a closer look

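Of 265 values tested over the 4 samples, 31 (11.7%) had 1 sample far from the rest, its gap to the nearest, as a share of the range, being above Dixon's 95% critical value for 4 samples. Chance gives about 1 in 20, but many of these values were chosen for a high CV in the same samples and all share 1 scaling per library, so the comparison with that rate is a description. The sample apart was replicate 1 in 23, replicate 4 in 5, replicate 2 in 2 and replicate 3 in 1, so most of these values describe 1 library.

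Replicate 1 had the highest share of sarcomere genes (11.24%, the others 8.863% to 9.075%), of glycolysis and glycogen genes (1.509%, the others 1.233% to 1.277%) and of oxidative defence genes (0.6955%, the others 0.5341% to 0.555%). With nuclear genes alone as the total, replicate 1 stayed highest in these 3 classes but its gap to the next sample was 0.696, 0.103 and 0.671 of the range, below the critical value in each. It was also high for the haemoglobin genes Hba-a1 (299.9 RPKM), Hba-a2 (315.5), Hbb-bs (984.3) and Hbb-bt (194.9). Muscle genes high in it were Des, the desmin filament (711.5 RPKM, the others 563.1 to 572.2), Tcap (2326, the others 1273 to 1405) and the slow troponin Tnnt1 (9.5, the others 5.309 to 5.59). Chaperones high in it were Hsp90b1 (89.06 RPKM), Hspa8 (165.3) and Hspa9 (218.2). Of mitochondrial proteins made from nuclear genes, Cox4i2 (14.21 RPKM), Cox7a1 (2883) and Idh2 (893.9) were high, as was Cpxm2 (15.46).

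Mitochondrial transcripts moved apart in this sample in both directions. mt-Rnr1 (3057 RPKM, the others 1849 to 1874) and mt-Ti (5710, the others 3551 to 3870) were high. mt-Cytb (20412 RPKM), mt-Nd1 (21106), mt-Nd2 (10190) and mt-Nd4 (6326, the others 13845 to 14421) were low.

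Replicate 4 was high for Saa3 (44.76 RPKM), Hp (28.85), S100a9 (18.44), Cxcl1 (6.276) and Malat1 (167). Replicate 3 was high for the IP3 receptor Itpr1 (5.303 RPKM, the others 3.728 to 3.906). Replicate 2 was low for the endothelial Plvap (6.605 RPKM, the others 9.079 to 9.554) and the glucose transporter Slc2a8 (7.625, the others 8.818 to 8.964).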

How the results depend on the processing

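By share of counts, which weighs long genes more, mitochondrially encoded genes held 17.41%, sarcomere genes 11.41%, nuclear respiratory chain and ATP synthase genes 5.031%, ribosomal proteins 1.228% and oxygen and iron carriers 1.606%. With genes outside the mitochondrial genome as the total the last 4 held 13.91%, 11.87%, 3.379% and 4.444%. On average 207.2 genes held 50% of the counts, and 227 held 50% of the RPKM outside the mitochondrial genome. Leaving out each sample in turn gave 10870 to 10991 detected genes and 37 to 49 genes holding 50%, changes of at most 1.5 times. The median CV was 8.762% to 12.2%, lowest without replicate 1, beside 11.6% with all 4 samples. No share moved by more than 1 SD. Leaving out 1 of 4 values cannot move their mean that far, so this limit decides nothing about the shares. The leading member changed by counts in 7 of 81 families and with GENCODE M21 lengths in 4, creatine kinases among them, where Ckm then held 34.6% and Ckmt2 64.7%. By counts Ucp2 (64.1%) led the uncoupling proteins and Timp3 (57.7%) the metalloproteinase inhibitors, and with M21 lengths Col1a1 (25.2%) led the collagens. Shares also moved where the leader stayed. By share of counts Vegfb held 49.8% and Cox7a1 63.4%, and with M21 lengths Cacna1c held 61.2% and Gja1 78.7%. Of the secondary values compared, 63 were classed as moved by share of counts and 29 as the same. With M21 lengths 38 were classed as moved and 54 as the same. Of the main values 6 moved and 1 stayed by share of counts, and 8 stayed with M21 lengths. No paired analysis was possible because only 1 group was described and the labels give no replicate numbers. The number of samples, reads shared between gene copies and the length assigned to each gene limit these values.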

Other observations

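Genes of this section were chosen after their values were seen. Only 2 genes had at least 50 counts in 1 sample and at most 5 in each of the others, and both were in replicate 2. Eno1b, a copy of alpha-enolase, had 2, 211, 4 and 4 counts in replicates 1 to 4. Ifi202b, an interferon-inducible gene, had 2, 89, 0 and 0 counts. Nnt, the mitochondrial transhydrogenase, in which the C57BL/6J strain is known to carry a deletion, had 77.1, 74.05, 149 and 106.5 RPKM, and replicate 3 was 2.01 times replicate 2. Counts per gene do not show which exons the reads came from.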
